A study of Mus musculus with 9 samples.

Results

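The class II olfactory receptor genes of mouse chromosome 7 were followed in 3 messenger RNA libraries of the olfactory epithelium. Members were chosen by symbol and position alone. They carry an Olfr symbol, lie on chromosome 7 (mm9) and start outside the block of class I receptor genes, whose first and last genes start at 109625287 and 112516842. The rule gave 112 genes, out of 236 Olfr symbols on chromosome 7, 1122 Olfr symbols in all and 21909 gene symbols in the tables. The first member starts at 6392613 and the last one ends at 147891090.

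All cells came from 4-week-old mice, and the tissue was the main olfactory epithelium. Mature olfactory sensory neurons (mOSN) were OMP-ires-EGFP positive cells, in which the gene of olfactory marker protein drives a green fluorescent protein. The population called globose basal cells (GBC) was Neurog1-EGFP positive, a reporter of a transcription factor of neuronal precursors. The horizontal basal cells (HBC), a reserve stem cell layer, were anti-CD54-PE positive, sorted by an antibody to a surface protein with no reporter allele named. Each population had 1 library of poly-A RNA, so no value below has a replicate error and no p-value is given. The sources used here do not give the number of animals behind a library. The mOSN and GBC libraries were made with an Illumina mRNA kit and the HBC library with ScriptSeq, which means that kit and population cannot be told apart wherever HBC is compared. Samples of the same populations for 5-hydroxymethylcytosine (3) and 5-methylcytosine (3) are part of the series and were not analysed here.

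Olfactory receptors are G protein-coupled receptors on the cilia of sensory neurons, and each mature neuron is known to express 1 receptor allele. Mammalian receptors fall into class I, which resembles receptors of fish and sits in a single block on mouse chromosome 7, and class II, which makes up most of the repertoire and is spread over many clusters. Family names with the prefix MOR group mouse receptors by sequence, and class I receptors hold the lowest family numbers, up to MOR42. The level of a receptor in a bulk library reflects both how many neurons chose it and how much RNA each holds. In these bulk samples fewer cells of a type and less RNA per cell cannot be told apart.

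All 112 members matched the RefSeq gene table (GRCm38.p6), which lists each as protein-coding and gives each a MOR family name. Members fell into 24 families. The family names did not bear out the class II label for 2 members. Olfr503 (115688041 to 115689012) is named for family MOR34 and Olfr504 (115708351 to 115709307) for family MOR40, both in the class I range. They are neighbours within a cluster of class II genes. Olfr503 had 0.0954 FPKM in mOSN, against 0.0193 FPKM in GBC, and Olfr504 had 0.0328 FPKM in mOSN and was listed at 0 in GBC. Both were listed at 0 in HBC. FPKM scales fragment counts to transcript length and to library size. Inside the class I block, 120 of the 121 genes with a family name were in the class I range.

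Several members are near-identical at the start of the coding sequence. The first 50 coding bases are printed for members of the largest family, MOR204, which is shown because its members span levels from near 0 to over 10 FPKM. Sequences are from RefSeq (GRCm38.p6), read in the direction of the gene, and start at the annotated start codon. Capitals mark bases that differ from Olfr484.
Olfr484: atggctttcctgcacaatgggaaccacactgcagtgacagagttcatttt
Olfr493: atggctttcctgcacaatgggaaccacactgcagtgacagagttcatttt
Olfr488: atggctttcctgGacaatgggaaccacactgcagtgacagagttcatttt
Olfr494: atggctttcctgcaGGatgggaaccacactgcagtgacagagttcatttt
Olfr482: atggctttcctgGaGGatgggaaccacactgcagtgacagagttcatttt
Olfr492: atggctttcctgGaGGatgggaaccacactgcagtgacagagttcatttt

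The genes printed were picked by hand, and their mOSN levels ran from 0.262 to 12.2 FPKM. Olfr488 stood at 12.2 FPKM and Olfr484, which differs from it at 1 of 50 bases, at 3.09 FPKM. Olfr493, identical to Olfr484 here, had 1.73 FPKM, and Olfr494 had 1.19 FPKM. Olfr482 and Olfr492 share all 50 bases and had 2.67 and 0.262 FPKM. Other close starts went with like levels, such as Olfr469 and Olfr482, which matched at 49 bases and had 2.70 and 2.67 FPKM. The window covers only the start of each gene, and the rest of the coding sequences was not compared. The sources used here do not say how fragments that match several genes were handled, so the levels of close copies are uncertain. Of 77 members whose RefSeq model begins at the start codon, 17 matched another member at 48 or more of the 50 bases, and 13 of these 17 were of MOR204. Pairs from different families had a median of 16 matching bases and a maximum of 46. Pairs within MOR204 had a median of only 19, with a range of 12 to 50. The starts printed above are among its closer ones, and pairs not printed, such as Olfr472 and Olfr473, matched at 49 bases. Medians within a family ran from 13 for MOR263 to 46 for MOR252, which has 1 pair.

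The pair shown next belongs to family MOR252 at the far end of the chromosome, which holds the highest member of all in mOSN. Capitals in Olfr530 mark bases that differ from Olfr533.
Olfr533: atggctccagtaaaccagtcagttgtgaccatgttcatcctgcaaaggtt
Olfr530: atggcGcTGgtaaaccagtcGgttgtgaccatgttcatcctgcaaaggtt

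Olfr533 and Olfr530 matched at 46 of 50 bases. Olfr533 had 40.1 FPKM in mOSN, against 12.3 FPKM in GBC. Olfr530 had 5.82 FPKM in mOSN, against 2.49 FPKM in GBC. The third gene of the family, Olfr536, has a longer model whose annotated start lies upstream of the coding part. The 250 bases before that start are shown because Olfr536 was the highest member in mOSN and GBC (RefSeq, GRCm38.p6, minus strand, chr7:140507319-140507568). Capitals mark matches to CCCNNGGG, the core of the motif bound by Ebf factors, which read CCCTTGGG and CCCATGGG.
Olfr536: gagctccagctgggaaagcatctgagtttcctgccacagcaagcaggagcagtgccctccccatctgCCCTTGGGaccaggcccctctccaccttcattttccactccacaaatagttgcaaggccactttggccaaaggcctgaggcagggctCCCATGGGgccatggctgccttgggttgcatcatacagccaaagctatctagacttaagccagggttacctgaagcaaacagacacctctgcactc

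The deposited intervals imply 16516700 fragments in mOSN, 18087564 in GBC and 18123443 in HBC. The members took 14823 of these in mOSN, 4230 in GBC and 353 in HBC. Below 10 implied fragments were 18 members in mOSN, 49 in GBC and 103 in HBC. Intervals quoted below are those deposited with each FPKM and cover counting error only. The 7 mature neuron markers summed to 9238 FPKM in mOSN, 1164 FPKM in GBC and 144 FPKM in HBC, and none of them was at 0 in any library. The 6 immature neuron markers summed to 296 FPKM in mOSN, 1741 FPKM in GBC and 18.1 FPKM in HBC. Among them Dcx alone was higher in mOSN than in GBC, with 70.9 against 61.7 FPKM. The 8 markers of globose basal cells and precursors summed to 6.17 FPKM in mOSN, 289 FPKM in GBC and 20.2 FPKM in HBC. Kit and Lgr5 of this list were higher in HBC than in GBC, Kit with 5.30 against 1.15 FPKM and Lgr5 with 0.395 against 0.303 FPKM. In the HBC library the 7 horizontal basal cell markers summed to 1103 FPKM, and the 6 macrophage markers to 3235 FPKM. Macrophage markers summed to 2.87 FPKM in mOSN and 4.01 FPKM in GBC. The 5 markers of sustentacular cells, the supporting cells, summed to 139 FPKM in mOSN, 36.8 FPKM in GBC and 1778 FPKM in HBC. Most of that HBC sum came from Cbr2 at 881 FPKM and Cyp2f2 at 748 FPKM. Cyp2g1 went the other way, with 46.1 FPKM in mOSN, against 11.1 FPKM in HBC. Ermn had only 2.65 FPKM in HBC, against 1.17 FPKM in mOSN. The part of these other cells in the receptor levels was not tested.

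Receptor RNA of the members was highest in the mature neurons. Their summed level was 8.09 FPKM in HBC, 182.8 FPKM in GBC and 680.1 FPKM in mOSN, so the GBC sum was 26.9% and the HBC sum 1.19% of the mOSN sum. With 1 conversion factor from fragments to FPKM per gene for all libraries, the sums were 14.8 FPKM in HBC, 167.4 FPKM in GBC and 689.7 FPKM in mOSN, with shares of 24.3% for GBC and 2.14% for HBC. In mOSN the median member had 3.33 FPKM, and the middle 50% of members lay between 1.37 and 6.63 FPKM. In GBC the median was 0.865 FPKM, with quartiles of 0.424 and 1.62 FPKM. A level of 1 FPKM was reached by 0 members of HBC, 51 of GBC and 90 of mOSN. A level of 5 FPKM was reached by 6 members in GBC and 39 in mOSN, and a level of 0.1 FPKM by 20 in HBC, 103 in GBC and 105 in mOSN. No member was listed at 0 in mOSN, 2 were in GBC and 67 were in HBC. A gene listed at 0 had no fragment assigned, which is not a measure of absence.

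The 7 mature neuron markers were set beside these shares as deposited. Omp itself stood at 1487 FPKM in mOSN, and its GBC value was 28.7% and its HBC value 4.82% of that. For Rtp1, a chaperone that carries receptors to the cell surface, the GBC value was 25.2% and the HBC value 0.738% of the mOSN value. For Cnga2, a subunit of the odorant-gated channel, the shares were 16.7% in GBC and 1.13% in HBC. Over the 7 markers the GBC shares ran from 6.002% for Adcy3 to 28.7% for Omp, and the HBC shares from 0.429% for S100a5 to 4.82% for Omp. The members' GBC share of 26.9% lay above those of 6 of the 7 markers, and their HBC share of 1.19% lay inside the range.

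**Figure D1:**
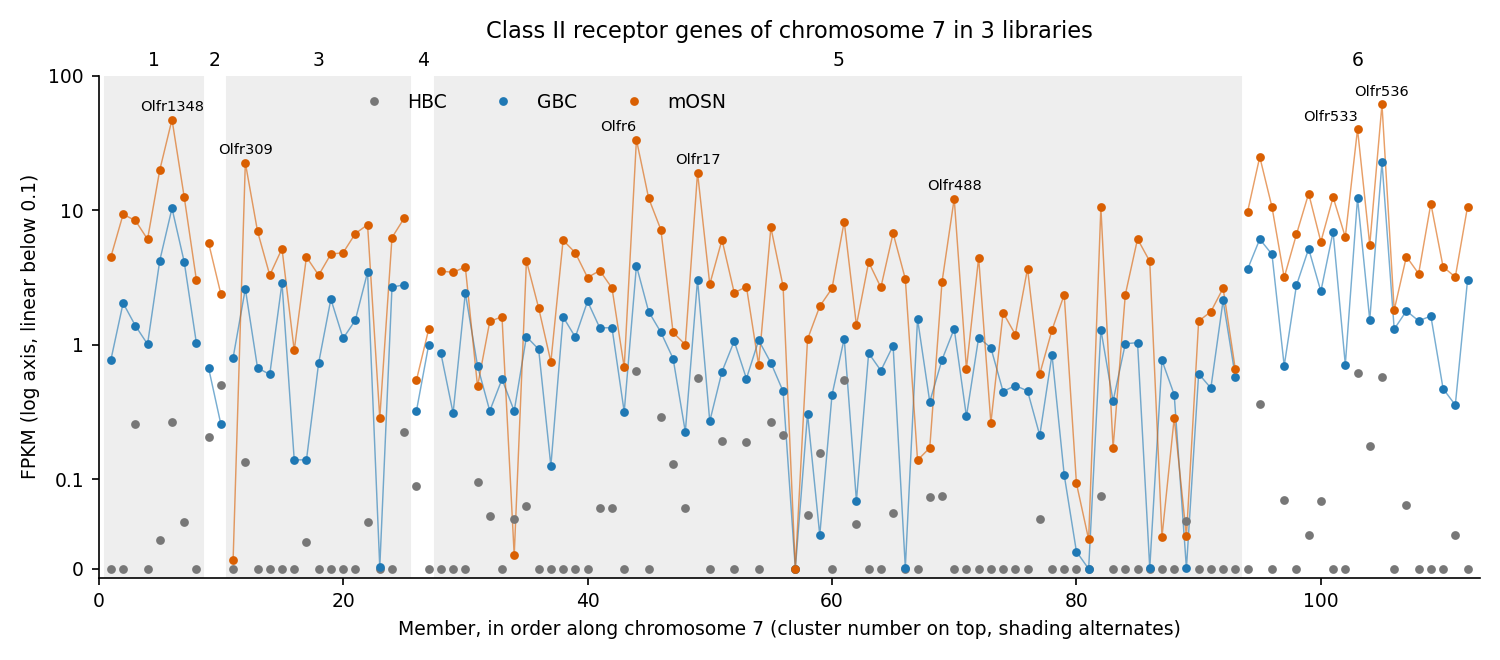
Level of each of the 112 members (FPKM on a log axis that is linear below 0.1) in their order along chromosome 7, with the 6 clusters numbered on top; grey points are HBC, blue points GBC and orange points mOSN. The mOSN points stand above the GBC points for 102 members, and single genes such as Olfr536 and Olfr533 stand far above their neighbours.

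A few genes held much of the receptor RNA. The 3 highest members made up 21.8% of the summed level in mOSN and 24.9% in GBC, and the 10 highest made up 43.3% in mOSN and 44.1% in GBC. Olfr536 (147686752 to 147693217) had 61.1 FPKM in mOSN (interval 59.3 to 63.0), against 22.8 FPKM in GBC (interval 21.6 to 24.0). Its HBC value was 0.580 FPKM (interval 0.468 to 0.692). It was the highest member in mOSN and GBC, with intervals that do not overlap between any of the 3 libraries. Its model spans 6466 bases, where the median member spans 946.5, and it rested on 4277 implied fragments in mOSN, 1434 in GBC and 107 in HBC. One FPKM of Olfr536 stood for 70.0 fragments in mOSN and 62.8 in GBC, but for 184 in HBC. With 1 conversion factor for all libraries its values were 63.8 FPKM in mOSN, 19.5 FPKM in GBC and 1.45 FPKM in HBC.

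Olfr1348 (6453997 to 6454935) was second in mOSN, with 47.2 FPKM (interval 43.9 to 50.6), against 10.3 FPKM in GBC (interval 8.82 to 11.9). Its HBC value was 0.266 FPKM. Olfr533 (147652102 to 147653064), whose coding start is given above, had 40.1 FPKM in mOSN (interval 37.0 to 43.1), against 12.3 FPKM in GBC (interval 10.7 to 14.0), and 0.615 FPKM in HBC. These 2 genes lie at opposite ends of the chromosome and were among the 3 highest in both mOSN and GBC. Olfr6 (114099498 to 114100448), known as M50, had 33.5 FPKM in mOSN (interval 30.4 to 36.5), against 3.87 FPKM in GBC (interval 2.71 to 5.02). At 0.640 FPKM it was the highest member in HBC. Olfr523 (147362003 to 147362956) had 24.9 FPKM in mOSN, against 6.10 FPKM in GBC. Olfr309 (93454695 to 93455621) had 22.6 FPKM in mOSN, against 2.61 FPKM in GBC. These 6 genes were the members above 20 FPKM in mOSN, and they came from 4 clusters.

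Olfr17 (114240981 to 114241928), known as P2, is the receptor whose tagged alleles have often been used to trace axons to the olfactory bulb. It had 19.1 FPKM in mOSN (interval 17.0 to 21.2), against 3.05 FPKM in GBC (interval 2.18 to 3.92), and 0.568 FPKM in HBC. Olfr2, known as I7, an early receptor to be matched to an odorant, had 7.17 FPKM in mOSN, against 1.24 FPKM in GBC, and 0.291 FPKM in HBC. Both stood above the median member in each of the 3 libraries.

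Between mOSN and GBC, members were mostly higher in mOSN. A gene counted as tested at 1 FPKM in either library, and as higher or lower at a 2-fold difference of FPKM + 1, a scale that understates the change of low genes. Of 92 members tested, 61 were higher in mOSN and 1 was lower, with a median log2 ratio of 1.36. Over all 12551 genes tested, 22.4% were higher and 10.3% were lower, with a median of 0.24. The filter favoured mOSN, where more members reached 1 FPKM, and the median over all 112 members was 1.18. Rescaling both libraries to a common sum put the median of all genes at -0.10 and that of the members at 1.08. With 1 conversion factor per gene these medians were -0.07 and 1.45. The excess of the members over all genes was therefore 1.12 as deposited, 1.18 at a common sum and 1.52 with 1 factor per gene. Among all called genes the share higher in mOSN was 68.5% as deposited, 48.7% at a common sum and 51.3% with 1 factor, while 1 member was lower in all 3.

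The largest ratios of the tested members, on that log2 scale, were those of Olfr6 at 2.82 and Olfr309 at 2.71. Olfr488 (115398706 to 115399650) had 12.2 FPKM in mOSN (interval 10.4 to 14.0), against 1.31 FPKM in GBC (interval 0.653 to 1.98), a log2 ratio of 2.51. Olfr510 (115810932 to 115811876) had 4.17 FPKM in mOSN (interval 3.05 to 5.29), against 0.000843 FPKM in GBC, where it rested on under 1 fragment. Its log2 ratio of 2.37 was set by the pseudocount and was 5.40 at 0.1 FPKM and 0.87 at 5 FPKM. The members with at least 10 implied fragments in GBC gave a plain fold. Across these 63 members mOSN stood at a median of 3.25 times GBC, and the highest was Olfr716 at 9.56 times.

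Members that were high in mOSN were mostly high in GBC too. Across the 112 genes, which share their libraries, the Spearman correlation between mOSN and GBC levels was 0.73, and it was 0.68 over the 63 members with at least 10 GBC fragments. Of the 10 highest members in mOSN, 8 were among the 10 highest in GBC. Olfr531 (147586029 to 147586943) followed Olfr536, Olfr533 and Olfr1348 in GBC. It had 12.5 FPKM in mOSN (interval 10.9 to 14.2), against 6.92 FPKM in GBC (interval 5.76 to 8.09). Its log2 ratio of 0.77 missed the 2-fold line, though the intervals were apart.

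A small set of members was numerically lower in mOSN. These were 10 genes, and the intervals were apart for 3. The share of all genes with intervals apart was not computed. Of the 10, 9 lay in the largest cluster, which holds 58.9% of the members. That cluster also holds 18 of the 22 members below 1 FPKM in mOSN. The 10 genes rested on at most 10.6 implied fragments each in mOSN. Olfr485 (115302432 to 115303385) had 0.139 FPKM in mOSN (interval 0 to 0.376), against 1.55 FPKM in GBC (interval 0.820 to 2.29), a log2 ratio of -1.17, and was the 1 member called lower. It rested on 17.9 implied fragments in GBC and 1.36 in mOSN. Olfr310 had 0.00988 FPKM in mOSN (interval 0 to 0.124), against 0.800 FPKM in GBC (interval 0.290 to 1.31). Olfr512 had 0.0357 FPKM in mOSN (interval 0 to 0.157), against 0.765 FPKM in GBC (interval 0.263 to 1.27). Both were below 1 FPKM in both libraries, so neither entered the count, and both were listed at 0 in HBC, as was Olfr485. Olfr470 (114988301 to 114989245) had 0.706 FPKM in mOSN, against 1.08 FPKM in GBC, with overlapping intervals. Olfr518 (116024117 to 116025118) had 2.64 FPKM in mOSN, against 2.13 FPKM in GBC, and differed by a log2 ratio of 0.21.

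**Figure D2:**
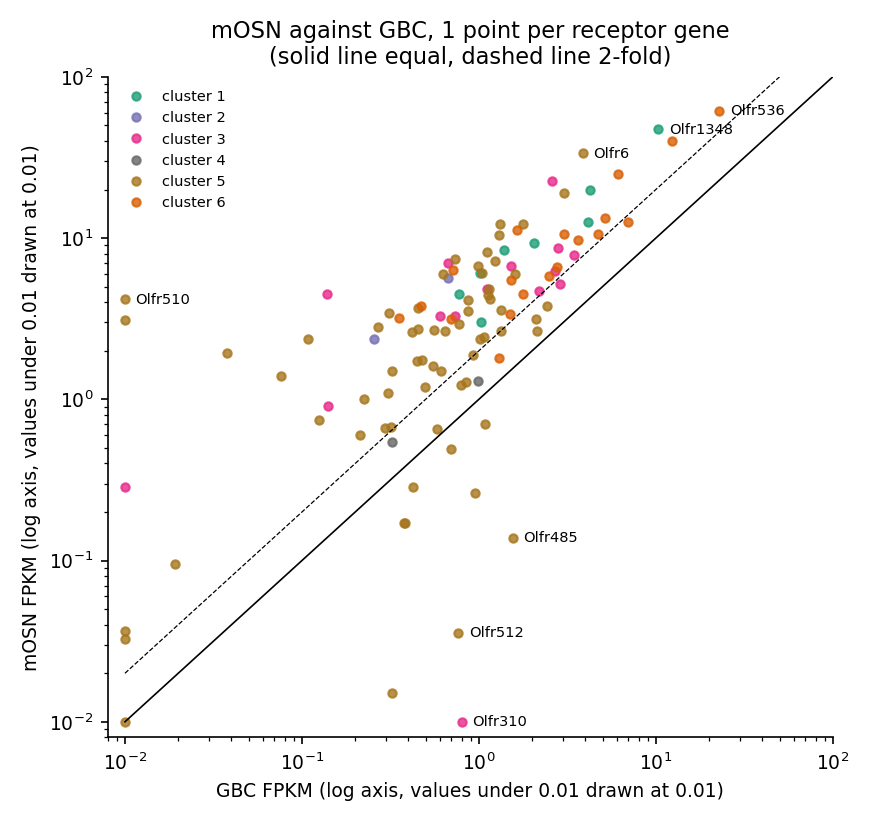
FPKM in mOSN (vertical log axis) against FPKM in GBC (horizontal log axis), 1 point per member coloured by cluster, with values under 0.01 drawn at 0.01; the solid line marks equal values and the dashed line a 2-fold difference. Most points lie above the dashed line, Olfr510 stands at the left edge with a GBC value near 0, and Olfr485, Olfr512 and Olfr310 lie below the solid line.

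Receptor levels were low throughout the HBC library. Between GBC and HBC, 48 of 51 members tested were higher in GBC and 0 were lower, with a median log2 ratio of 1.40. No member could be called lower, here or in mOSN against HBC, since that takes 1 FPKM in HBC, which none reached. Of all 13736 genes tested, 34.6% were higher in GBC and 23.4% lower, with a median of 0.46. With median-of-ratios scaling the median of all genes was -0.00065, the share higher among called genes was 45.6% in place of 59.7%, and 39 of 45 members were higher. Between mOSN and HBC, 87 of 90 members tested were higher in mOSN and 0 were lower, with a median of 2.39. Over all 14092 genes tested 40.4% were higher and 23.0% lower, with a median of 0.63. The share higher among all called genes was 63.7% as deposited, 53.1% at a common sum, 50.7% with median-of-ratios scaling and 52.1% with 1 conversion factor.

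Every member tested against HBC entered through the other library, since no member reached 1 FPKM in HBC. Over all 112 members the median log2 ratio was 0.865 for GBC over HBC and 2.10 for mOSN over HBC. Over all 21909 gene symbols these medians were 0.065 and 0. Counted without a filter, 107 members were above HBC in GBC, 3 were below and 2 were equal at 0. The 3 were Olfr290, Olfr477 and Olfr514, and their intervals overlapped. Olfr290 had 0.256 FPKM in GBC, against 0.499 FPKM in HBC. The 4 highest members in HBC were Olfr6, Olfr533, Olfr536 and Olfr17, which were all among the 10 highest in mOSN. With 1 conversion factor per gene, 3 members reached 1 FPKM in HBC, namely Olfr536 at 1.45, Olfr6 at 1.35 and Olfr479 at 1.17 FPKM.

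Along the chromosome, members formed 6 clusters when a gap of over 1 Mb between starts opened a new one. Cluster 1 (6392613 to 6523630) held 8 genes, cluster 2 (92002081 to 92065238) held 2, cluster 3 (93417240 to 93843894) held 15, and cluster 4 (106883655 to 106916639) held 2. Cluster 5 (113821048 to 116037919) was the largest with 66 genes. Cluster 6 (147347909 to 147891090) held 19. The class I block lies between clusters 4 and 5.

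The largest cluster did not have the highest levels. The median member of cluster 1 had 8.86 FPKM in mOSN, against 1.71 FPKM in GBC. In cluster 6 the medians were 6.60 FPKM in mOSN and 2.49 FPKM in GBC. In cluster 3 they were 4.83 FPKM in mOSN and 1.11 FPKM in GBC. Cluster 5, which holds 58.9% of the members, gave 34.6% of the summed level in mOSN, with a median of 2.40 FPKM in mOSN, against 0.636 FPKM in GBC. Cluster 6, with 17.0% of the members, gave 35.0% of the sum in mOSN and 43.7% in GBC. Of the 22 members below 1 FPKM in mOSN, 18 were in cluster 5, and none were in clusters 1 or 6. In cluster 6, 19 of 19 members reached 1 FPKM in mOSN and 15 of 19 in GBC. In cluster 1 these counts were 8 of 8 in mOSN and 7 of 8 in GBC, and in cluster 5 they were 48 of 66 in mOSN and 21 of 66 in GBC.

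The difference between mOSN and GBC also varied by cluster. Called higher in mOSN were 7 of 8 tested members in cluster 1, 8 of 12 in cluster 3, 30 of 50 in cluster 5 and 14 of 19 in cluster 6, and Olfr485 in cluster 5 was called lower. The summed level in GBC was 22.5% of that in mOSN for cluster 1, 25.9% for cluster 3, 22.7% for cluster 5 and 33.6% for cluster 6. The clusters of 2 genes gave the lowest and the highest share. In cluster 2, with Olfr291 and Olfr290, it was 11.4%, and both genes were called higher in mOSN. In cluster 4, with Olfr520 and Olfr521, it was 71.3%, over a sum of 1.85 FPKM in mOSN. Olfr521 had 1.30 FPKM in mOSN (interval 0.788 to 1.82), against 0.995 FPKM in GBC (interval 0.604 to 1.39), with overlapping intervals. Differences between clusters could not be tested, since the genes of a cluster share 1 library.

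**Figure D3:**
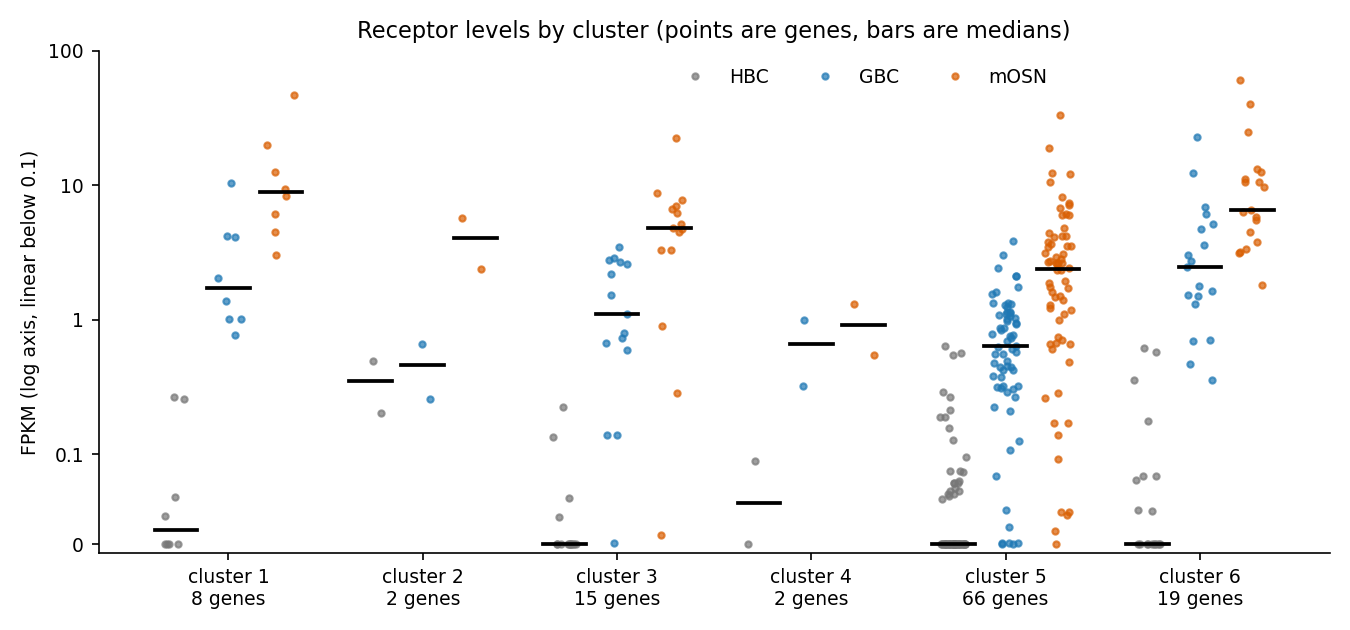
FPKM (log axis, linear below 0.1) of each member by cluster, with HBC in grey, GBC in blue and mOSN in orange; points are genes and bars are medians. Clusters 1 and 6 have no mOSN point below 1 FPKM, and cluster 5 spreads from near 0 to 33.5 FPKM.

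Cluster 5 has an inner gap of 667 kb between 2 groups of receptor genes, where other genes such as Syt9, a synaptotagmin, lie. Syt9 had 2.69 FPKM in mOSN, against 2.21 FPKM in GBC. The 24 members before the gap had a median of 3.31 FPKM in mOSN, led by Olfr6. The 42 members after it had a median of 1.85 FPKM in mOSN, led by Olfr488 at 12.2 FPKM. In cluster 6 the scavenger receptor gene Cd163l1 lies among the receptor genes and showed the reverse order of levels, with 0.0107 FPKM in mOSN, 0.328 FPKM in GBC and 10.6 FPKM in HBC.

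Pooled over the clusters, neighbouring receptor genes were about as unlike in level as other pairs of the same cluster. Over 106 adjacent pairs, with a median gap of 21.7 kb, the median absolute log2 difference of FPKM + 1 in mOSN was 1.09. It was 1.08 over the 2345 pairs of the same cluster that are not adjacent and 1.24 over all 6216 pairs. Cluster 5, the largest, weighs more in the pairs that are not adjacent, so these medians mix the clusters differently. The adjacent pairs include Olfr716 and Olfr467, which lie 666 kb apart. At least a 2-fold difference separated 58 of the adjacent pairs and at least a 4-fold difference 17. The largest step was between Olfr310 at 0.00988 FPKM and Olfr309 at 22.6 FPKM. Olfr6 lies 7.67 kb from Olfr710, which had 0.678 FPKM in mOSN. In both pairs a high gene lies next to a low one.

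The 3 highest members were chosen for their level, so their neighbours had to be lower, and the values are given as a description. Olfr535, 7.27 kb from Olfr536, had 5.53 FPKM in mOSN, against 1.53 FPKM in GBC. Olfr538, on the other side, had 1.81 FPKM in mOSN, against 1.31 FPKM in GBC. Olfr1348 had neighbours of higher level. Olfr1347 on one side had 19.9 FPKM in mOSN, against 4.23 FPKM in GBC, and Olfr1349 on the other had 12.5 FPKM in mOSN, against 4.12 FPKM in GBC. Olfr532, before Olfr533, had 6.32 FPKM in mOSN, against 0.711 FPKM in GBC. Olfr17 stood beside Olfr714 at 1.002 FPKM in mOSN, a member of its own family MOR263.

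Among the members, most receptor families fell within 1 cluster. Of 12 families with at least 3 members, which hold 96 members, 9 have all their members in a single cluster. Cluster 5 alone holds 58.9% of the members. Genes of these families outside the members were looked up only for MOR103. MOR204 has 31 members, all in cluster 5. Its median was 2.36 FPKM in mOSN, against 0.497 FPKM in GBC, its highest member was Olfr488, and it gave 13.0% of the summed level in mOSN. Below 1 FPKM in mOSN were 8 of the 31, and 5 of the 31, Olfr485 and Olfr470 among them, were numerically lower in mOSN than in GBC. MOR283, with 12 members at the start of cluster 5, had a median of 3.31 FPKM in mOSN, against 0.779 FPKM in GBC. MOR268 at the end of that cluster was the lowest of the larger families, with 6 members and a median of 1.08 FPKM in mOSN, against 0.594 FPKM in GBC.

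The family MOR103 was singled out after its values were seen. Its 10 members lie in clusters 1, 5 and 6 and include Olfr1348, Olfr1347, Olfr6 and Olfr2. They ranged from 6.09 to 47.2 FPKM in mOSN, with a median of 10.1 FPKM in mOSN, against 2.84 FPKM in GBC. All 10 were above 5 FPKM in mOSN, as were 29 of the other 102 members. With 8.93% of the members they gave 24.1% of the summed level in mOSN. The tables hold 7 further genes of this family on other chromosomes. These ranged from 1.44 to 13.0 FPKM in mOSN, with a median of 3.96 FPKM. Among them Olfr449 on chromosome 6 and Olfr414 on chromosome 1 were the highest, both at 13.0 FPKM.

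MOR252 was the highest family by median, with 40.1 FPKM in mOSN, against 12.3 FPKM in GBC, over Olfr536, Olfr533 and Olfr530. MOR253, with 9 members in cluster 6 that include Olfr535 and Olfr538, had a median of 4.53 FPKM in mOSN, against 1.53 FPKM in GBC. The families are interspersed in that cluster, with Olfr535 of MOR253 lying between Olfr533 and Olfr536 of MOR252. In MOR260 a copy with a pseudogene symbol, Olfr1532-ps1, had 2.64 FPKM in mOSN and the nearby Olfr707 had 3.56 FPKM. These 2 genes rested on the same number of implied fragments in GBC, 26, and in HBC, 2, so their levels are uncertain.

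**Figure D4:**
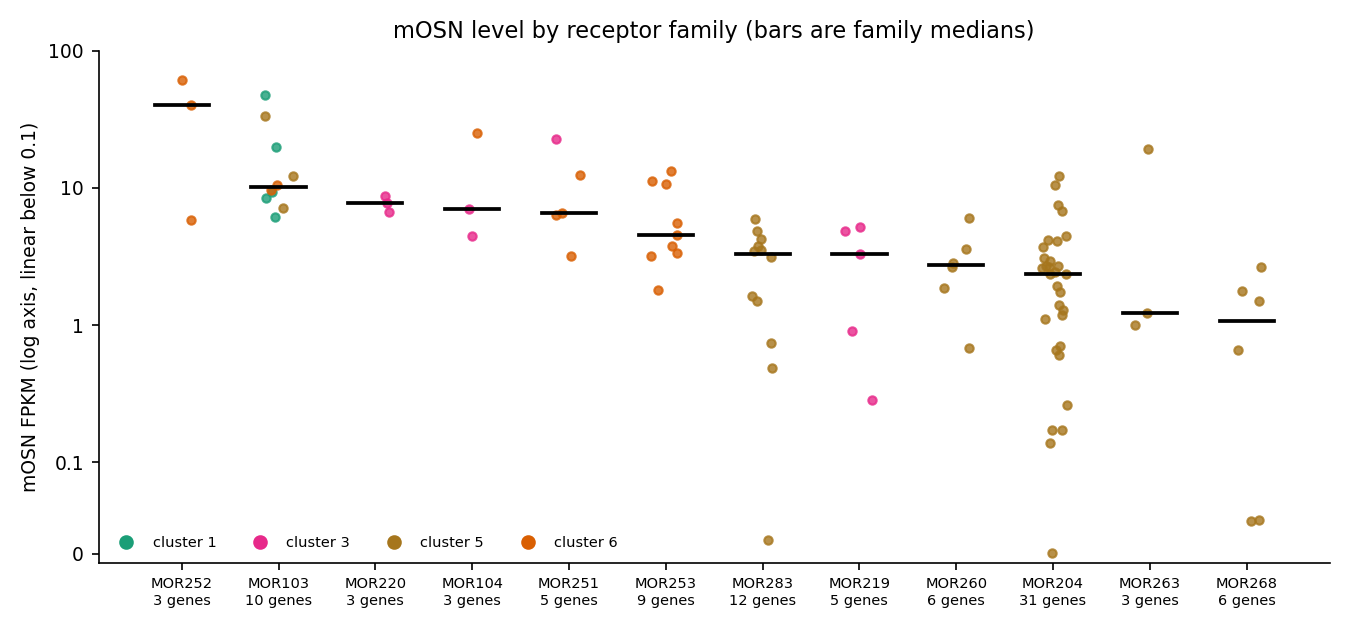
FPKM in mOSN (log axis, linear below 0.1) of each member in the 12 families with at least 3 members, ordered by family median, with bars at the medians and colours for clusters. All 10 points of MOR103 lie above 5 FPKM across 3 clusters, and MOR204 in cluster 5 has the widest spread.

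Receptors at the edges of the class I block were set side by side with their class I neighbours. Before the block, Olfr521 with 1.30 FPKM in mOSN, against 0.995 FPKM in GBC, is the nearest member, and Olfr543 is the first class I gene, with 9.64 FPKM in mOSN, against 4.75 FPKM in GBC. After the block, Olfr693 (113821048 to 113821999) had 3.52 FPKM in mOSN, against 0.864 FPKM in GBC, and the last class I gene, Olfr692, had 3.10 FPKM in mOSN, against 1.62 FPKM in GBC. All 4 were listed at 0 in HBC.

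The members were then set against other receptor genes, with no test of the differences since all sets share the same 3 libraries. In mOSN, 80.4% of the members reached 1 FPKM, against 91.1% of the 124 genes of the class I block, 83.5% of the 291 Olfr genes on chromosome 2 and 82.7% of the 886 outside chromosome 7. In GBC the share of the members was the largest of the 4, with 45.5% of the members, against 33.9% of the class I block, 31.3% on chromosome 2 and 39.2% outside chromosome 7. The median mOSN level was 3.33 FPKM for the members, against 4.41 FPKM in the class I block, 3.65 FPKM on chromosome 2 and 3.53 FPKM outside chromosome 7. Members held 11.7% of the summed receptor level in mOSN and 14.3% in GBC, and they are 9.98% of the Olfr symbols.

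Receptor RNA was more concentrated in a few genes among the members than in the class I block. The 10 highest members gave 43.3% of the members' sum in mOSN, against 25.8% in the class I block, whose size is similar and whose highest gene had 26.4 FPKM. Between mOSN and GBC, 66.3% of tested members were higher in mOSN, against 77.9% in the class I block, 82.3% on chromosome 2 and 73.7% outside chromosome 7. The median log2 ratio was 1.36 for the members, against 1.57 in the class I block, 1.68 on chromosome 2 and 1.41 outside chromosome 7.

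**Figure D5:**
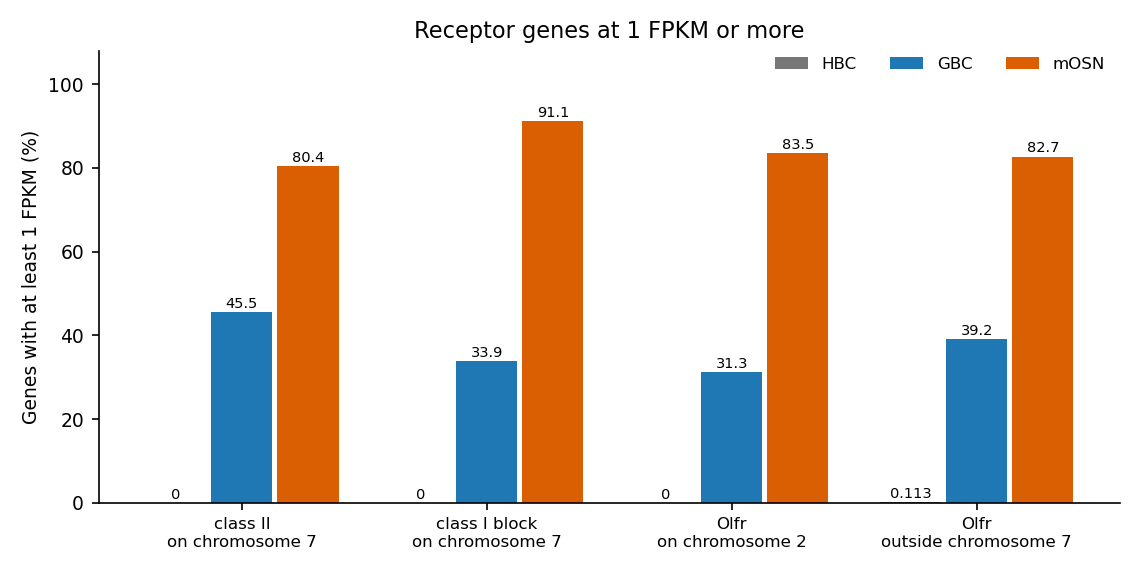
Share of receptor genes with at least 1 FPKM (percent, vertical axis from 0) in 4 sets of receptor genes, with HBC in grey, GBC in blue and mOSN in orange. The class II genes of chromosome 7 have the lowest bar in mOSN at 80.4% and the highest in GBC at 45.5%, and the HBC bars are at or near 0.

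Genes of receptor choice and odorant signalling were counted beside the receptors. Of 24 listed genes, 12 were higher in mOSN than in GBC and 1 was lower, with a median log2 ratio of 1.27. Over all genes tested, 22.4% were higher and 10.3% lower. Among the 24, the largest ratios were those of signalling genes. Adcy3, which makes the second messenger cyclic AMP, had 547 FPKM in mOSN, against 32.8 FPKM in GBC. The channel subunits Cngb1 and Cnga4 had log2 ratios of 3.89 and 3.70. Transcription factors implicated in receptor choice were high in both populations, with Lhx2 at 110 FPKM in mOSN, against 170 FPKM in GBC, and Ebf2 at 124 FPKM in mOSN, against 173 FPKM in GBC, neither difference reaching 2-fold. Ebf3 and Ebf4 went the other way without reaching 2-fold, with Ebf3 at 158 FPKM in mOSN, against 104 FPKM in GBC, and Ebf4 at 106 FPKM in mOSN, against 54.9 FPKM in GBC. Ldb1, the cofactor that binds Lhx2, was the gene called lower, with 36.3 FPKM in mOSN, against 80.9 FPKM in GBC. Between GBC and HBC, 22 of the 24 were higher in GBC and 1 was lower, against 34.6% and 23.4% of all genes tested. The lower gene was Lbr, a protein of the inner nuclear membrane, with 4.76 FPKM in GBC, against 11.6 FPKM in HBC.

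Motifs of such factors were searched on both strands in 300-base RefSeq windows around annotated starts, which 99 members have. For the 77 members whose model begins at the start codon the true transcription start may lie elsewhere. The homeodomain motif TAATTG was found in 31 of the 99 windows (31.3%), against 22.3% of the 849 windows of other Olfr genes and 8.002% of all 32841 windows. The related TAATTA was found in 12.1% of the members, 19.3% of other Olfr windows and 5.29% of all. The Ebf core CCCNNGGG, marked above for Olfr536, was found in 6 member windows (6.06%), 2.71% of other Olfr windows and 13.7% of all. A longer form of the Ebf motif, with a T before and an A after this core, was found in 1 member window (1.01%), 0.471% of other Olfr windows and 0.904% of all, and each such match also counts as a match to the core. Member windows were AT-rich, with a median of 63.3% A or T, against 65.0% in other Olfr windows and 47.3% in all, and the 250 bases shown for Olfr536 held 43.6%. A match is a run of letters and was not tested for binding.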

How the data were processed

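Poly-A RNA of 3 sorted populations was sequenced as 1 library each, and samples were grouped by title. Per the file headers, the authors deposited FPKM for each gene, with the bounds of an interval and a status. Bowtie, TopHat, Cufflinks and the build mm9 are named, per the submitters' processing notes, without versions or options. The sources used here give neither the annotation nor the handling of fragments that match several genes. Rows of 1 symbol were added up. All 112 members had status OK in each table. Implied fragments were read from the deposited intervals, taking the half-width as 2 times FPKM over the square root of the count. Among all rows with at most 100 of them, 68.5% in mOSN, 68.8% in GBC and 77.4% in HBC lay within 0.03 of a whole number. Of the member values, 14 of 78 in mOSN, 29 of 99 in GBC and 38 of 44 in HBC did, so member counts in mOSN and GBC are estimates.

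Ratios were log2((FPKM + 1)/(FPKM + 1)). A gene was tested at 1 FPKM in either library and called at a log2 ratio of 1. With 1 library per group no count model was used and no p-value computed. The calls were tried on simulated data in which only genes above the GBC level of most members were changed. How the calls behave at lower levels was not tested. Starts were raised by 1 to count from 1. Python 3.11.15, pandas 2.3.3, numpy 2.4.6, scipy 1.17.1 and matplotlib 3.10.9 were used. The members and lists were chosen with earlier results of these data known. Named were the highest members per library, the largest and smallest mOSN to GBC ratios, the highest of each cluster with at least 3 genes, those at the edges of the class I block, Olfr17 and the neighbours of the 3 highest. Other members and families were named after their values were seen. Alternatives varied the pseudocount, filter, scaling, conversion factor, rows, members and cluster gap, and those leaving out members with class I family names or near-identical coding starts were added after seeing the data. Windows of 300 bases came from RefSeq (GRCm38.p6).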

Additional observations from a re-analysis of the deposited data

How the results depend on the processing

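Of 63 counts of members under the alternatives, 52 stayed within 1.5 times the reported count. Some of these alternatives could not move a count. Each member has 1 row with status OK in each library, so the settings that pick rows repeated the reported counts. Lifting the filter could not change the counts of 2-fold differences, since a 2-fold difference of FPKM + 1 needs 1 FPKM in 1 library. The count higher in mOSN than in GBC was 61 as reported, 17 with a pseudocount of 5 FPKM and 34 of 39 tested with a filter at 5 FPKM. The count higher in GBC than in HBC was 48, and 6 under both of these settings. The count higher in mOSN than in HBC was 87, and 39 under both. Fewer members can pass at such levels, since 39 reach 5 FPKM in mOSN and 6 in GBC. Members at a set level were 90 in mOSN at 1 FPKM and 39 at 5 FPKM. In GBC they were 51 at 1 FPKM, 103 at 0.1 FPKM and 6 at 5 FPKM. In HBC they were 0 at 1 FPKM, 20 at 0.1 FPKM and 3 at 1 FPKM with 1 conversion factor per gene. Of 140 values of the 20 named genes under the alternatives, 109 stayed within an interval around the reported log2 ratio and 31 moved by more. That interval was computed from the implied fragments of both libraries and is not a deposited one. The 109 include the values under the row settings above, which could not move. Of the 2-fold differences 0 changed sign. Only the alternatives of scaling and conversion factor could change a sign, since a new pseudocount cannot. Olfr518, which was not called, had a log2 ratio of 0.21 as deposited and -0.05 at a common sum. Leaving out the 17 members with near-identical coding starts gave 51 of 78 higher in mOSN than in GBC. Leaving out the 2 with class I family names could change none of the 3 counts, since both were below 1 FPKM in every library. Clusters numbered 7 with a gap of 0.5 Mb and 5 with a gap of 2 Mb. The alternative that leaves out members with near-identical proteins was not run, because no protein sequences were used here. No paired analysis was possible because each population has 1 library and the titles carry no replicate numbers. Members below about 1 FPKM rest on few fragments, with a median of 15.9 per FPKM in mOSN for genes of under 1200 bases, and their ratios are limited by depth.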
